A study of Homo sapiens with 6 samples.

Results

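The 2 siRNAs used to silence PPP2R2A were compared directly with each other, as the 2 arrays of siRNA 1 minus the 2 arrays of siRNA 2, which are 4 of the 6 arrays of the series. The cells were RT-112, an established human bladder cancer cell line, and the study profiled them after transient silencing of PPP2R2A. One group received siPPP2R2A_1, here siRNA 1, the next received siPPP2R2A_2, here siRNA 2, and the last received a scramble siRNA. Every group carried 50 nM siRNA delivered with Lipofectamine RNAiMAX, was transfected a second time 24 h after the first, and was harvested 24 h later, so no group lacked siRNA or transfection reagent. The scramble arrays served as the reference for direction. Arrays were assigned by the siRNA number in their titles, and 1 title of siRNA 1 spells the gene name differently. The series design calls the 2 arrays of a group (A and B) technical duplicates, so the error in each comparison is the spread between duplicate arrays and not between separate transfections. The siRNA and the transfected cultures that received it cannot be told apart.

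PPP2R2A encodes B55 alpha, a regulatory subunit that directs the serine/threonine phosphatase PP2A to its substrates. A small interfering RNA is loaded into an Argonaute protein and guides cleavage of the transcript it matches along its length. The same loaded strand can also lower other transcripts that pair with its seed, the short stretch near its 5′ end, and double-stranded RNA can be sensed by innate immune receptors, so molecules against one target are known to differ in the other transcripts they touch. The files and labels used here hold no sequence of these siRNAs, so matches between an siRNA and a transcript were not examined.

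Signals are the deposited linear intensities, and differences are given as log2(signal + 1). A gene was represented by its brightest probe set among those annotated with 1 gene symbol, and 12735 genes were tested that exceeded the array median (69.3 to 76.2 across arrays) on at least 2 of the 6 arrays. All 9 epithelial marker genes with a probe set were above the array median on all 6 arrays, with a summed signal of 134950 to 139793 with siRNA 1, 114638 to 122560 with siRNA 2 and 134252 to 138973 with scramble. Of 14 markers of other cell types with a probe set, 7 passed the filter, and the summed signal of the list was 2046 to 2086, 2046 to 2143 and 2049 to 2168 in the same order. PTPRC and CD14 (leukocytes) and ALB (hepatocytes) stayed under the filter. CD3E, a T cell marker, passed it on the 2 siRNA 1 arrays alone, with 76.7 and 111 with siRNA 1, 10.4 and 43.5 with siRNA 2 and 17.98 and 59.1 with scramble, a difference of 2.05 (limma adjusted p = 0.303). The part of this in the results that follow was not tested. The highest signal of any of these markers was 1175, of the collagen gene COL1A1. The 3′ to 5′ ratio of the ACTB control probe sets, a measure of RNA or label integrity, was 6.52 and 7.82 with siRNA 1, 7.47 and 12.4 with siRNA 2 and 5.43 and 5.94 with scramble, whereas that of GAPDH lay between 0.943 and 1.02. The part of the ACTB difference in the comparisons that follow was not tested, and counts without the siRNA 2 array at 12.4 (array B) are given beside the gene lists.

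The brightest probe set of the target, PPP2R2A, was lower on all 4 siRNA arrays than on both scramble arrays. Its signal was 336 and 397 with siRNA 1, 510.0 and 533 with siRNA 2 and 1381 and 1589 with scramble. Both siRNA 1 arrays were also below both siRNA 2 arrays. The difference between the siRNAs was -0.51 ± 0.13 (log2, SE) with an adjusted p of 0.158 (limma), which did not pass the threshold of 0.05. On a second, dimmer probe set the signals were 72.4 and 109 with siRNA 1, 105 and 112 with siRNA 2 and 446 and 434 with scramble, a difference of -0.28. Another gave 334 and 221 with siRNA 1, 179 and 272 with siRNA 2 and 287 and 281 with scramble, where the siRNA and scramble arrays overlapped and the difference was 0.30. The remaining probe set was under the filter.

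Across the 12735 genes the means of the siRNAs differed by at least 2-fold for 382 and by at least 1.5-fold for 1278. The SD over genes of the difference between an siRNA 1 array and an siRNA 2 array was 0.479 to 0.536, against 0.441 to 0.450 between duplicate arrays of a group. A gene was called where the limma adjusted p was under 0.05 and the difference at least 1.5-fold. The calls numbered 27, which is 0.212% of genes tested, with 11 genes higher and 16 lower with siRNA 1 than with siRNA 2, at adjusted p-values of 0.0418 to 0.04998. The plot of the difference against the mean level shows the called genes spread over dim and bright transcripts. At an unadjusted p under 0.05, 9.16% of all genes were higher with siRNA 1 and 9.53% lower, and these are the shares against which the gene lists are read. They were 6.05% and 7.22% with arrays centred on their medians, 5.96% and 5.72% without the low-value filter, 8.28% and 9.75% without probe set types that can bind related transcripts, and 8.05% and 7% without siRNA 2 array B. Over a gene's averaged probe sets these shares were 6.42% and 5.82%. Counts of a list without 1 array come from fits with fewer arrays, so the shares of the full fit are not their yardstick. Fewer of all genes reached an unadjusted p under 0.05 in each of those fits too, in both directions. A smaller count of a list there is therefore not by itself a loss particular to the list. Both arrays of siRNA 1 lay above both arrays of siRNA 2 for 24.2% of genes and below them for 26.5%. With any 1 of the 6 arrays left out (siRNA 1 A or B, siRNA 2 A or B, scramble A or B) limma called 0 genes, while 1599 to 2118 genes had an unadjusted p under 0.05. The called genes are therefore described by their levels on each array.

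**Figure D1:**
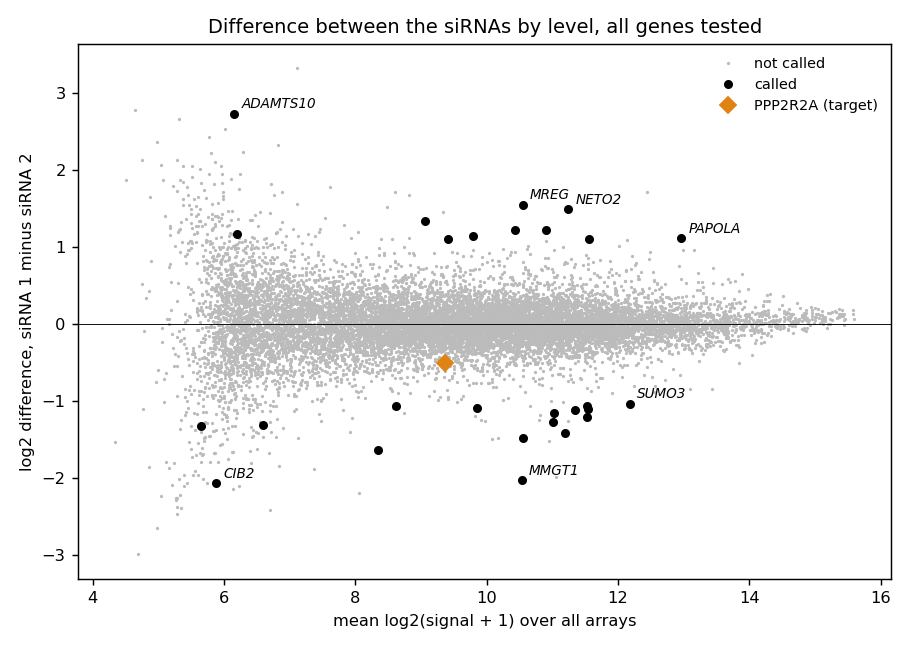
Difference between the siRNAs (siRNA 1 minus siRNA 2, log2) against the mean log2(signal + 1) over all 6 arrays, 1 point per gene tested (12735). Black points are the 27 called genes, from -2.07 (CIB2) to 2.73 (ADAMTS10), and the orange diamond is the target PPP2R2A at -0.51, which lies among genes that were not called.

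Read against scramble, which both siRNAs share as reference, the 27 genes fell into few patterns. In 11 of them siRNA 1 stood at least 1.5-fold below scramble while siRNA 2 stayed within 1.5-fold of it. In 10 it was siRNA 2 that stood below, with siRNA 1 within 1.5-fold. In 3 siRNA 2 stood above with siRNA 1 within, in 2 the siRNAs lay past 1.5-fold on opposite sides of scramble, and in 1 both lay at least 1.5-fold below it. No called gene had siRNA 1 alone at least 1.5-fold above scramble. Positions among the 715 genes with an unadjusted p under 0.05 and a 1.5-fold difference were broader: siRNA 1 alone stood below in 129 and above in 57, siRNA 2 alone stood below in 163 and above in 94, the siRNAs lay on opposite sides in 21 and past 1.5-fold on the same side in 20, and in 231 each siRNA was within 1.5-fold of scramble.

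The first group, low with siRNA 1 and near scramble with siRNA 2, held 11 genes. MMGT1, also known as EMC5, a subunit of the ER membrane protein complex that inserts membrane proteins, gave 599 and 577 with siRNA 1, 2272 and 2556 with siRNA 2 and 2344 and 2255 with scramble. The difference was -2.03 ± 0.09 (log2, SE, 2 arrays a group, adjusted p = 0.0418), and the siRNA 2 and scramble arrays overlapped. RAB21, a small GTPase of early endosomes, gave 821 and 779 with siRNA 1, 2261 and 2202 with siRNA 2 and 1893 and 1849 with scramble, a difference of -1.48 (adjusted p = 0.0418). SKAP2, an adaptor protein of Src-family kinase signalling, gave 1212 and 1177 with siRNA 1, 3277 and 3115 with siRNA 2 and 3349 and 3425 with scramble, a difference of -1.42 (adjusted p = 0.0418). For both genes the 2 siRNA 1 arrays were far below the other 4. The siRNA 2 arrays of RAB21 were above both scramble arrays, with a mean difference of 0.25 (log2), and those of SKAP2 were a little below both.

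CDC23, a subunit of the anaphase-promoting complex, gave 1193 and 1134 with siRNA 1, 2817 and 2810.3 with siRNA 2 and 2820.5 and 2576 with scramble, a difference of -1.27 (adjusted p = 0.0467). NEDD1, which brings the gamma-tubulin ring complex to the centrosome and spindle, gave 1859 and 1928 with siRNA 1, 4035 and 3901 with siRNA 2 and 3438 and 3401 with scramble, a difference of -1.07. Of 28 G2/M and mitosis genes tested, 0 were higher and 1 lower at an unadjusted p under 0.05, and the median difference was 0.05. Without siRNA 2 array B these counts were 1 and 0, without siRNA 1 array A 2 and 1, and without siRNA 2 array A 0 and 0. SUMO3, a ubiquitin-like modifier, lies outside the 15 largest lower differences and was named after its values were seen. It gave 2864 and 2984 with siRNA 1, 5965 and 6038 with siRNA 2 and 5913 and 5435 with scramble, a difference of -1.04 (adjusted p = 0.04998). It was among the brightest of the called genes.

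GOLGA4, a golgin of the trans-Golgi network, gave 1215 and 1339 with siRNA 1, 2970.5 and 2755 with siRNA 2 and 2529.7 and 2387 with scramble, a difference of -1.16. SLC26A2, a sulfate transporter, gave 1504 and 1551 with siRNA 1, 3278 and 3356 with siRNA 2 and 3302 and 3626 with scramble, a difference of -1.12. APH1A, a subunit of gamma-secretase, gave 1839 and 1910.3 with siRNA 1, 3978 and 4090.2 with siRNA 2 and 3499.7 and 3588 with scramble, a difference of -1.11. In these 3 genes no siRNA 1 array overlapped an array of another group. PLPBP, which binds pyridoxal phosphate, gave 533 and 594 with siRNA 1, 1196 and 1214 with siRNA 2 and 1132 and 1192 with scramble, a difference of -1.10. CIB2, a calcium- and integrin-binding protein, was dim, at 20.4 and 22.4 with siRNA 1, which is under the array medians, against 91.6 and 94.7 with siRNA 2 and 106 and 84.4 with scramble, so its difference of -2.07 rests on low signals.

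**Figure D2:**
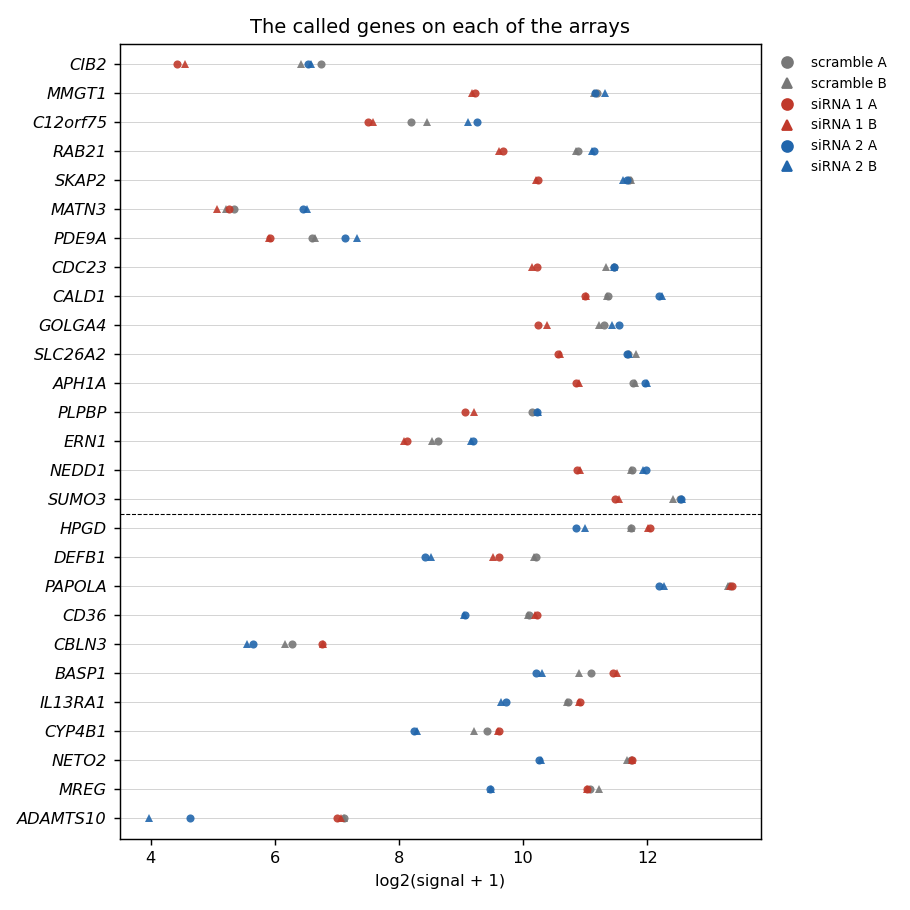
The log2(signal + 1) of the 27 called genes on each of the 6 arrays (grey scramble, red siRNA 1, blue siRNA 2, circles array A, triangles array B), with the 16 genes lower with siRNA 1 above the dashed line and the 11 higher below it. In MMGT1, RAB21 and SKAP2 the red points stand apart, and in MREG, NETO2 and PAPOLA the blue points do.

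The converse group of 10 genes, low with siRNA 2 and near scramble with siRNA 1, is given next. MREG, melanoregulin, which takes part in melanosome and lysosome traffic, gave 2081 and 2079.9 with siRNA 1, 709 and 715 with siRNA 2 and 2154 and 2384 with scramble. It was higher with siRNA 1 by 1.55 ± 0.09 (log2, SE, adjusted p = 0.0418). NETO2, an auxiliary subunit of kainate receptors, gave 3466 and 3442 with siRNA 1, 1215 and 1244 with siRNA 2 and 3396 and 3268 with scramble, a difference of 1.49 (adjusted p = 0.0418). The siRNA 2 arrays of both genes were alone at the low end. PAPOLA, the canonical nuclear poly(A) polymerase, gave 10514 and 10274 with siRNA 1, 4683 and 4941 with siRNA 2 and 10263 and 10058 with scramble, a difference of 1.11 (adjusted p = 0.0467). Of the 27 called probe sets it was the brightest.

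IL13RA1, a receptor chain shared by interleukins 4 and 13, gave 1927 and 1909 with siRNA 1, 844 and 796 with siRNA 2 and 1695 and 1678 with scramble, a difference of 1.23 (adjusted p = 0.0467). CD36, a scavenger receptor that takes up fatty acids, gave 1191 and 1167 with siRNA 1, 537 and 529 with siRNA 2 and 1091 and 1081 with scramble, a difference of 1.14. For both receptors the siRNA 1 arrays lay a little above the scramble arrays and the siRNA 2 arrays were far below. CYP4B1, a cytochrome P450 of luminal urothelium, gave 783 and 769 with siRNA 1, 302 and 314 with siRNA 2 and 684 and 588 with scramble, a difference of 1.33. HPGD, the dehydrogenase that inactivates prostaglandins, gave 4239 and 4106 with siRNA 1, 1851 and 2052 with siRNA 2 and 3405 and 3410.3 with scramble, a difference of 1.10. BASP1, a membrane-attached signalling protein, gave 2798 and 2918 with siRNA 1, 1186 and 1258 with siRNA 2 and 2178 and 1904 with scramble, a difference of 1.23. In CYP4B1, HPGD and BASP1 the siRNA 1 arrays also stood above the scramble arrays, by 0.29, 0.29 and 0.49 on the log2 scale, less than 1.5-fold.

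ADAMTS10, a secreted metalloprotease, and CBLN3, a secreted cerebellin-family protein, were the dim members of this group. ADAMTS10 gave 127 and 134 with siRNA 1, 23.9 and 14.7 with siRNA 2 and 137 and 138 with scramble, so its difference of 2.73 is set by siRNA 2 signals under the array medians. CBLN3 gave 107 and 109 with siRNA 1, 49.2 and 45.8 with siRNA 2 and 76.2 and 70.9 with scramble, a difference of 1.17. DEFB1, the antimicrobial peptide beta-defensin 1, was the 1 called gene at least 1.5-fold below scramble with both molecules. It gave 782 and 734 with siRNA 1, 341 and 365 with siRNA 2 and 1181 and 1158 with scramble. Against scramble this is -0.63 with siRNA 1 and -1.73 with siRNA 2, and the difference between the siRNAs was 1.10. No 2 groups overlapped for DEFB1.

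In the other 5 called genes siRNA 2 stood above scramble. CALD1, caldesmon, an actin-binding protein of the contractile cytoskeleton, gave 2038 and 2068 with siRNA 1, 4664 and 4834 with siRNA 2 and 2631 and 2620.3 with scramble, a difference of -1.21 (adjusted p = 0.0467). ERN1, the ER stress sensor IRE1 alpha, gave 280.3 and 270.0 with siRNA 1, 585 and 570.0 with siRNA 2 and 395 and 371 with scramble, a difference of -1.07. In both, scramble lay between the siRNAs. MATN3, a cartilage matrix protein, gave 37.4 and 32.5 with siRNA 1, 86.7 and 91.0 with siRNA 2 and 39.4 and 36.2 with scramble, with siRNA 1 and scramble under the array medians. It passed the low-value filter through the 2 siRNA 2 arrays alone, the group where it is high. C12orf75 gave 179.5 and 191 with siRNA 1, 608 and 552 with siRNA 2 and 292 and 350.57 with scramble, and PDE9A, a phosphodiesterase of cyclic GMP, gave 59.8 and 58.9 with siRNA 1, 139 and 159.9 with siRNA 2 and 96.2 and 99.7 with scramble. These last 2 genes lay past 1.5-fold on opposite sides of scramble, with -0.79 and 0.85 for C12orf75 and -0.71 and 0.60 for PDE9A.

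The array carries more than 1 probe set for many genes, which gives further readings of the contrast on the same RNA. Of the 27 called genes, 18 had other single-symbol probe sets above the filter, 42 in all, and 9 had none. The direction was that of the gene's main probe set for 33 of the 42 and the opposite for 9. It was the same and at least 1.5-fold for 24 of the 42, where 11.6% of all 23969 single-symbol probe sets above the filter differed by at least 1.5-fold in either direction. All other probe sets had the gene's direction for 13 of the 18 genes. RAB21 read -1.41 and -1.41 on 2 further probe sets above the filter, SKAP2 read -1.59, -1.03 and -0.75, SLC26A2 read -1.19 and -0.78, and PLPBP read -1.50 and -1.08. Each of these probe sets had the direction of the gene's main one. Other genes were split between their probe sets: PAPOLA read 1.43 on 1 further probe set and between -0.08 and 0.16 on 4, ERN1 read 0.00 and 0.23, SUMO3 read 0.12, and GOLGA4 read -0.11. CALD1 read 0.48 and 0.32 on 2 of its 6, and CD36 -0.59 on 1 of its 4. Probe sets can lie on different parts or isoforms of a transcript. Of the 18 genes, 12 had another probe set in the gene's direction at 1.5-fold or more. The rest of the 18, ERN1, SUMO3 and GOLGA4 among them, had none at that size. A further 9 called genes had no other probe set above the filter. For all of these the call rests on 1 probe set. When every probe set was tested on its own, limma called 0 of the 23969, with 3882 at an unadjusted p under 0.05.

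**Figure D3:**
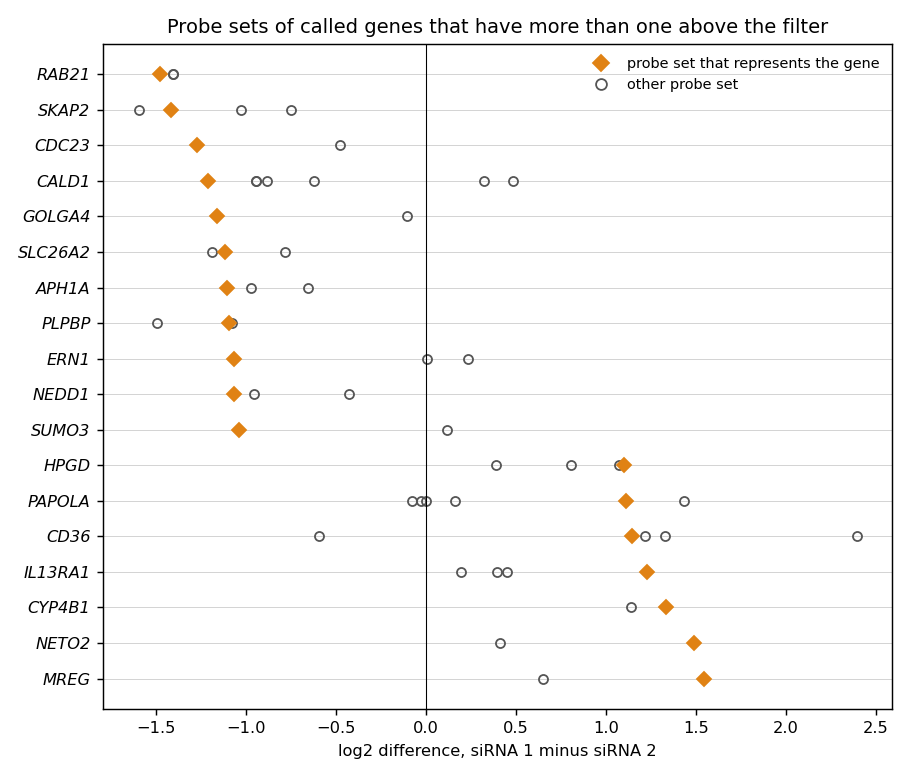
Difference between the siRNAs (log2, siRNA 1 minus siRNA 2) on every single-symbol probe set above the filter, for the 18 called genes with more than 1; the diamond is the probe set that represents the gene and open circles are the others. The circles of RAB21, SKAP2 and SLC26A2 lie on the side of the diamond, and those of ERN1, SUMO3 and 4 of PAPOLA lie near 0.

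Functions were read from 30 gene lists, with all genes as the yardstick: of the 12735 tested, 6215 were higher with siRNA 1 and the median difference was -0.01. The lists farthest above this were NF-kappaB targets, cornified envelope and S100 genes, NRF2 targets and basal keratins, with medians of 0.36, 0.27, 0.26 and 0.26, and those farthest below were histone genes and PP2A subunits, at -0.12 and -0.09. The median of cornified envelope and S100 genes was 0.10 without the low-value filter and 0.75, above that of NF-kappaB targets, without probe set types that can bind related transcripts. That of histone genes was 0.01 without siRNA 2 array B. At an unadjusted p under 0.05, 0 of 12 histone genes were higher and 1 (8.33%) was lower, beside 9.53% lower of all genes. The median of PP2A subunits was 0.06 with every probe set tested. The called members of any list were 4: MMGT1, RAB21, CYP4B1 and IL13RA1. All other members named with the lists did not pass the adjusted threshold, and their values are given as levels. Some genes stand in more than 1 list (12 repeated entries), so related lists are not separate observations.

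**Figure D4:**
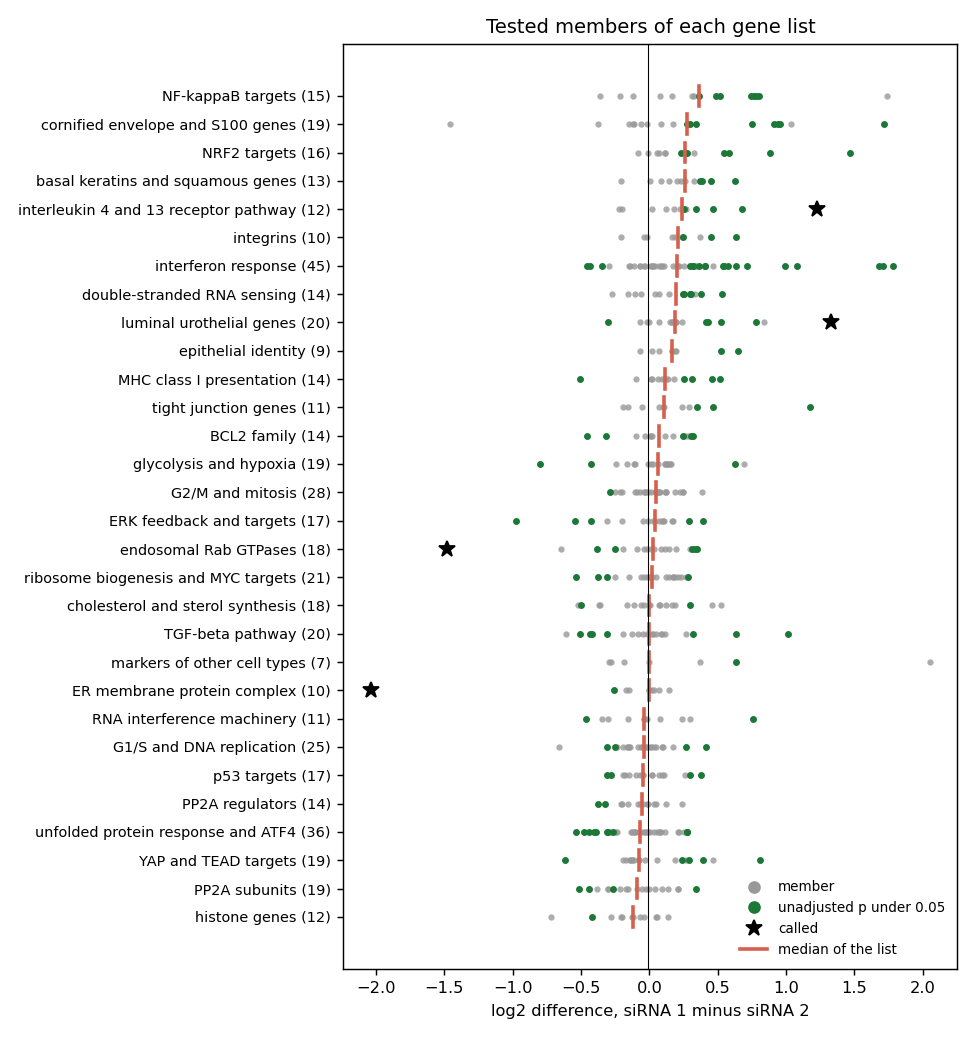
Difference between the siRNAs (log2, siRNA 1 minus siRNA 2) for every tested member of the 30 gene lists, with the number tested in parentheses; green marks an unadjusted p under 0.05, a star a called gene and the red bar the list's median. Medians run from 0.36 (NF-kappaB targets) to -0.12 (histone genes), while the median of all genes is -0.01.

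Many genes of the interferon response gave higher signals with siRNA 1 than with siRNA 2. Of 45 tested, 34 were above 0, 16 (35.6%) were higher at an unadjusted p under 0.05 and 3 (6.67%) lower, and the median was 0.20. Leaving out 1 array at a time gave 12 to 15 higher genes, the fewest without siRNA 2 array B, and 0 to 3 lower, with 0 without siRNA 1 array B and 1 without siRNA 2 array A or B. CXCL10, a chemokine that attracts T cells, gave 714 and 889.8 with siRNA 1, 243 and 244 with siRNA 2 and 267 and 331 with scramble, a difference of 1.71 (adjusted p = 0.0575). Its siRNA 1 arrays were the highest of the 6.

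OASL, an oligoadenylate synthetase-like antiviral protein, gave 6708 and 5974 with siRNA 1, 3244 and 2750.4 with siRNA 2 and 4991 and 4565 with scramble, a difference of 1.08 (adjusted p = 0.0655). IRF1, a transcription factor of the pathway, gave 1336 and 1279 with siRNA 1, 898 and 853 with siRNA 2 and 1111 and 1144 with scramble, a difference of 0.58. In both, siRNA 1 was above and siRNA 2 below scramble. The genes given next, up to and including IFIT3, were chosen after their values were seen. CXCL11, which binds the same receptor as CXCL10, gave 372 and 350.97 with siRNA 1, 121 and 90.1 with siRNA 2 and 155 and 245 with scramble, a difference of 1.78. MX1, an antiviral GTPase, was dim and uneven between duplicates, at 152 and 239 with siRNA 1, 51.0 and 68.3 with siRNA 2 and 89.4 and 135 with scramble. IFI44L and XAF1, also interferon-induced, showed little difference between the siRNAs: IFI44L gave 572 and 493 with siRNA 1, 578 and 539 with siRNA 2 and 80.4 and 92.9 with scramble, and XAF1 gave 365 and 248 with siRNA 1, 302 and 289 with siRNA 2 and 102 and 109 with scramble. Both siRNAs were thus above scramble for IFI44L by a like amount, while CXCL10 was above it with siRNA 1 alone. Members lower with siRNA 1 at an unadjusted p under 0.05 were IFI6, GBP1 and IFIT5, at -0.43, -0.46 and -0.35.

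The regions before the start sites of 3 of these genes are printed because each holds matches to the interferon-stimulated response element, the site bound by interferon-activated factors, and because the genes have the smallest unadjusted p among the members whose matches all lie before the start site. The element was searched for on both strands as GAAA, any 2 bases and GAAA again, and the capitals mark it or its reverse complement. The 250 bases shown end at the base before the start site and are from RefSeq, GRCh38.p14, read 5′ to 3′ on the strand of the gene: chr4:76023498-76023747 (minus strand) for CXCL10, chr15:88638766-88639015 (plus strand) for ISG20 and chr10:89327747-89327996 (plus strand) for IFIT3. The matches begin 221 bases before the start site in CXCL10, 69 in ISG20, and 156 and 122 in IFIT3, where both lie on the opposite strand.
CXCL10: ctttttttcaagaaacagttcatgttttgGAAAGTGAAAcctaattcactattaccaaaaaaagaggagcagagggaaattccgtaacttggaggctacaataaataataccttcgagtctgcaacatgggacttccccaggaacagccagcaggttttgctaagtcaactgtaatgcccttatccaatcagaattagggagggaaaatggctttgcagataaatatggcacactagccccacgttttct
ISG20: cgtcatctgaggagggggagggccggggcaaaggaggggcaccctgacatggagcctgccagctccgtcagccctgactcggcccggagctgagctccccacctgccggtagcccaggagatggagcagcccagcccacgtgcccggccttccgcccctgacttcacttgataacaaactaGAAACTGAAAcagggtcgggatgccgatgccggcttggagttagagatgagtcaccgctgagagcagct
IFIT3: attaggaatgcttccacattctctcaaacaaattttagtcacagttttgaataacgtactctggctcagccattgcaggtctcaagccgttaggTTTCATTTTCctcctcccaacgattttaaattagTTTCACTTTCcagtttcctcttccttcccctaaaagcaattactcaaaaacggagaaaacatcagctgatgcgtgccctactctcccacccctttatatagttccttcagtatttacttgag
ISG20, an exonuclease, gave 620.1 and 635 with siRNA 1, 404 and 361 with siRNA 2 and 507 and 569 with scramble. IFIT3, which binds foreign RNA together with its relatives, gave 13326 and 11982 with siRNA 1, 8754 and 8554 with siRNA 2 and 8651 and 9540.1 with scramble. In each gene the siRNA 1 arrays were the highest.

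In windows of 300 bases, which run to 50 bases past the start site, the element was in 25 of 38 interferon genes with a promoter in the table (65.8%) and in 3.65% of all 27305 promoters. Among the 10294 tested genes with a promoter its share was 2.65%. Of the 25 genes with the element, 16 were above 0 in the difference between the siRNAs, with a median of 0.20, as were 11 of the 13 without it, with a median of 0.25. A match describes letters in a window and not a bound site.

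Most receptors and adaptors that sense double-stranded RNA gave slightly higher signals with siRNA 1. Of 14 tested, 10 were above 0, 6 (42.9%) were higher at an unadjusted p under 0.05 and 0 lower, with a median of 0.20. IFIH1, which encodes the sensor MDA5, gave 929.8 and 953 with siRNA 1, 654 and 650.1 with siRNA 2 and 649 and 593 with scramble. IRF3, the transcription factor at the end of the sensor pathway, gave 839 and 808 with siRNA 1, 602 and 667 with siRNA 2 and 776 and 761 with scramble, and RIGI, a cytosolic RNA sensor, gave 1131 and 1079.8 with siRNA 1, 906 and 953 with siRNA 2 and 868 and 878 with scramble. For IFIH1 and RIGI siRNA 1 was above both other groups, and for IRF3 siRNA 2 was below both. The count fell to 2 without scramble array A or B and to 3 without any 1 of the 4 siRNA arrays. With arrays centred on their medians it was 1 of 14 (7.14%), beside 6.05% of all genes, and without the low-value filter 2 of 15 (13.3%), beside 5.96%. Of 11 genes of the RNA interference machinery 4 were above 0, and at an unadjusted p under 0.05 1 was higher and 1 lower. Without siRNA 2 array B 1 was higher and 3 were lower, without siRNA 1 array B 2 and 0, and without siRNA 2 array A 1 and 0. With arrays centred on their medians 2 were lower. TNRC6B, a partner of Argonaute in silencing, gave 1263 and 1391 with siRNA 1, 782 and 788 with siRNA 2 and 1107 and 1386 with scramble, low with siRNA 2. AGO4, an Argonaute, differed by -0.47 on its brightest probe set and by 0.74 over the mean of all its probe sets, so its direction depends on the probe set.

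Targets of NF-kappaB, the inflammatory transcription factor, had the highest median of the lists in the comparison as fitted. Of 15 tested, 12 were above 0, 7 (46.7%) were higher with siRNA 1 at an unadjusted p under 0.05 and 0 were lower. NFKBIZ, an atypical I-kappaB protein, gave 3671 and 3322 with siRNA 1, 2026 and 2148 with siRNA 2 and 2386 and 2357 with scramble (difference 0.74, adjusted p = 0.0706). NFKBIA, the inhibitor that NF-kappaB induces against itself, gave 3598 and 3709 with siRNA 1, 1977 and 2338 with siRNA 2 and 2853 and 2888 with scramble (0.76). TNFAIP2, induced by tumour necrosis factor, gave 3889 and 3839.9 with siRNA 1, 2709.6 and 2797 with siRNA 2 and 3196 and 3102 with scramble (0.49). In all 3 scramble lay between the siRNAs. LCN2 (lipocalin 2, which binds iron carriers of bacteria) and CXCL8 (the neutrophil attractant interleukin 8), chosen after their values were seen, differed by 0.80 and 0.78. Without 1 array the count was 5 to 8, with 8 without siRNA 2 array B, and 1 target was lower without siRNA 1 array B or siRNA 2 array B. Antigen presentation by MHC class I had a smaller median of 0.12: 4 of 14 (28.6%) were higher and 1 lower at an unadjusted p under 0.05. PSMB9, an immunoproteasome subunit, gave 1430.0 and 1505 with siRNA 1, 1055 and 1079 with siRNA 2 and 1039 and 1155 with scramble, and ERAP2, which trims peptides, gave 2757 and 2205 with siRNA 1, 1771 and 1685 with siRNA 2 and 1646 and 1701 with scramble. Both were near scramble with siRNA 2. The MHC class I count was 1 without siRNA 2 array B, and 2 without siRNA 1 array A, without the low-value filter or with arrays centred on their medians.

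**Figure D5:**
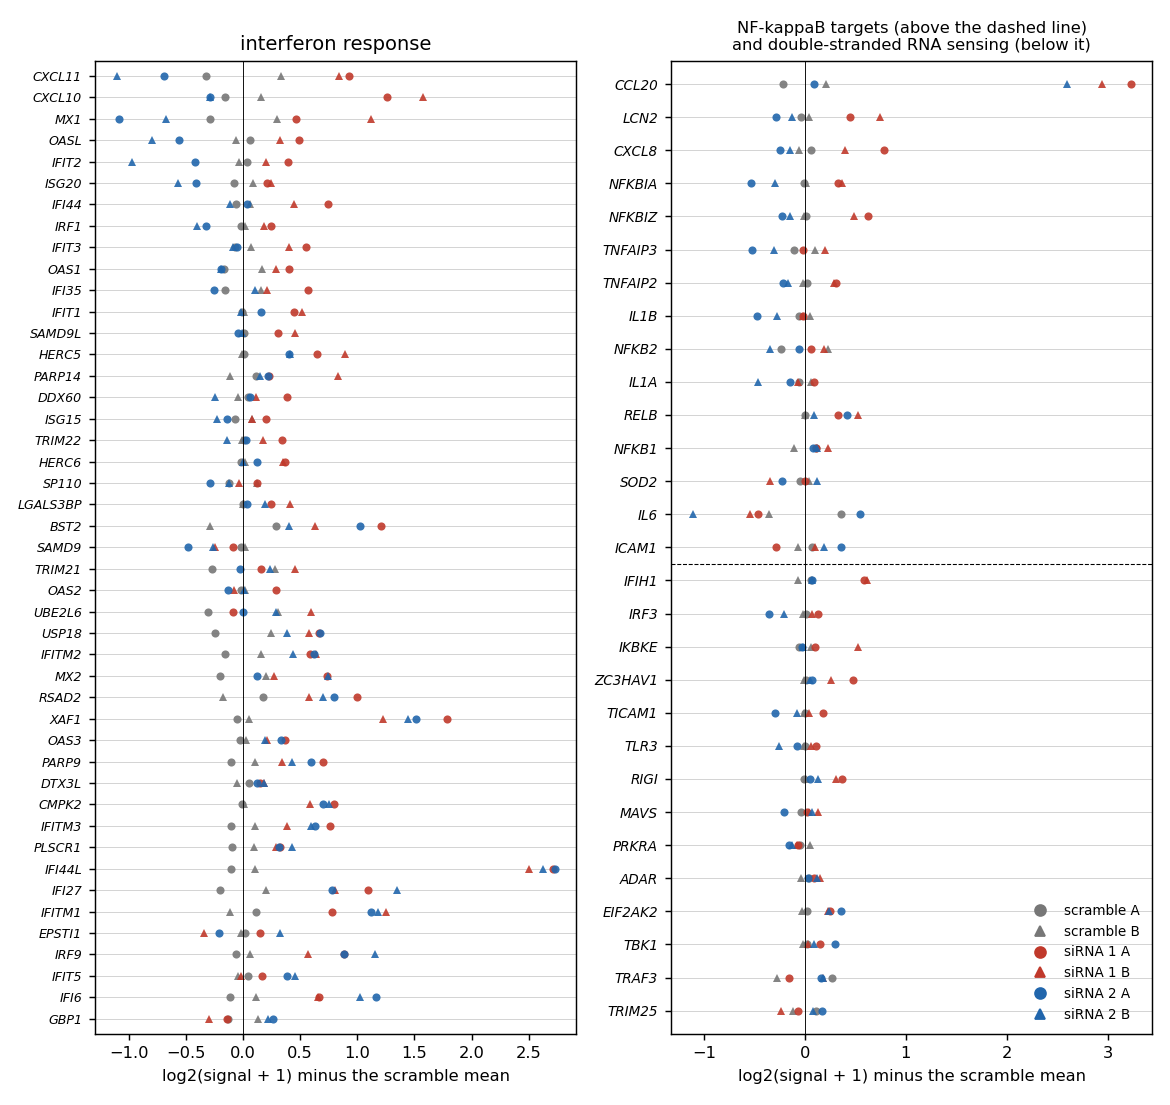
The log2(signal + 1) minus the scramble mean of each tested interferon response gene (left, 45 genes), NF-kappaB target and double-stranded RNA sensing gene (right, 15 and 14 genes) on each of the 6 arrays, ordered by the difference between the siRNAs (grey scramble, red siRNA 1, blue siRNA 2, circles array A, triangles array B). In CXCL10, NFKBIZ and IFIH1 the red points are the highest, and in IFI44L red and blue points overlap well above scramble.

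Several genes of squamous differentiation gave their lowest signals with siRNA 2. Of 19 cornified envelope and S100 genes tested, 12 were above 0 and 7 below it, down to -1.46. Both siRNA 1 arrays lay above both siRNA 2 arrays for 10 of them and below for 4. At an unadjusted p under 0.05, 8 of the 19 (42.1%) were higher with siRNA 1 and 0 lower. The median of the 19 against scramble was -0.28 with siRNA 1 and -0.46 with siRNA 2. SPRR1B, a cornified envelope precursor, gave 1391 and 1419 with siRNA 1, 655 and 819 with siRNA 2 and 2225 and 2237 with scramble (0.94, adjusted p = 0.0795). PI3, the protease inhibitor elafin, gave 92.1 and 97.9 with siRNA 1, 50.7 and 61.8 with siRNA 2 and 118 and 115 with scramble (0.75). S100A8, a subunit of calprotectin, gave 7892 and 7637 with siRNA 1, 1645 and 3378 with siRNA 2 and 8176 and 10635 with scramble (1.72, adjusted p = 0.125). The 2 siRNA 2 arrays of S100A8 differed by more than 2-fold from each other, and both were below the other 4. The count was 4 to 9 with 1 array left out: 4 without siRNA 1 array B, 5 without siRNA 1 array A, siRNA 2 array A or either scramble array, and 9 without siRNA 2 array B. With arrays centred on their medians 5 were higher and 1 lower, as among the 25 genes measured without the low-value filter.

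Basal keratins and related squamous genes leaned the same way, with 12 of 13 above 0, 4 (30.8%) higher at an unadjusted p under 0.05 and a median of 0.26 (2 higher without siRNA 2 array A, 5 without siRNA 2 array B, 2 with arrays centred on their medians, and 1 of 10 without probe set types that can bind related transcripts). KRT4, a keratin of stratified mucosa, gave 892 and 993 with siRNA 1, 643 and 574 with siRNA 2 and 870.2 and 871 with scramble. KRT13, its pairing partner, gave 20483 and 21185 with siRNA 1, 16154 and 15787 with siRNA 2 and 26033 and 24864 with scramble. Both keratins were lowest with siRNA 2. Luminal urothelial genes had 16 of 20 above 0 and 5 (25%) higher and 1 lower at an unadjusted p under 0.05, among them the called CYP4B1. These counts were 5 and 1 without siRNA 2 array B, and 0 were lower without siRNA 1 array A or B, without siRNA 2 array A or with arrays centred on their medians. KRT8, a simple-epithelium keratin, gave 9082 and 9489 with siRNA 1, 6559 and 6333 with siRNA 2 and 10077 and 9755 with scramble, and GRHL3, a transcription factor of urothelial differentiation, gave 356 and 367 with siRNA 1, 189.8 and 232 with siRNA 2 and 194 and 202 with scramble. KRT8 was low with siRNA 2 and GRHL3 high with siRNA 1. CDH1, E-cadherin, which joins epithelial cells, gave 18213 and 18262 with siRNA 1, 11545 and 11729 with siRNA 2 and 16923 and 15824 with scramble (0.65, adjusted p = 0.0706), and was lowest with siRNA 2. In bulk RNA, fewer cells of a state and less RNA per cell cannot be told apart.

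Adhesion genes included ITGA2, the collagen-binding integrin alpha 2 chain, which gave 4812 and 4833 with siRNA 1, 3180.5 and 3050.1 with siRNA 2 and 3915 and 3644 with scramble (0.63, with -0.12 on its other probe set). Of 10 integrins tested 3 and of 11 tight junction genes 3 were higher at an unadjusted p under 0.05, and none of either list was lower. CLDN2, among these tight junction genes, passed the low-value filter through the 2 siRNA 1 arrays alone, the group where it is high. It gave 74.3 and 88.0 with siRNA 1, 44.7 and 27.8 with siRNA 2 and 52.5 and 47.1 with scramble. Above the array median on at least 4 arrays, 2 of 10 tight junction genes (20%) were higher, beside 9.9% of all genes. Without siRNA 1 array B or siRNA 2 array B 1 integrin was higher, as with arrays centred on their medians or without the low-value filter, and 0 were higher over a gene's averaged probe sets. Of the tight junction genes 2 were higher without siRNA 2 array B. CLDN1, a barrier-forming claudin, gave 5932 and 5275 with siRNA 1, 3938 and 4175 with siRNA 2 and 2739 and 2764 with scramble. Here both siRNAs were above scramble and siRNA 1 was the higher.

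The unfolded protein response and ATF4 list, which does not hold the called ERN1, had more members with lower than with higher signals under siRNA 1. Of 36 tested, 8 (22.2%) were lower at an unadjusted p under 0.05 and 2 (5.56%) higher, and the median was -0.07. Against scramble the median of the 36 was 0.42 with siRNA 1 and 0.44 with siRNA 2, so the list stood above scramble by a like amount with both. ASNS, asparagine synthetase, gave 4434 and 4537 with siRNA 1, 6769.7 and 6251 with siRNA 2 and 2756 and 2931 with scramble (-0.54, adjusted p = 0.0885). PSAT1, of serine synthesis, gave 8828 and 8243 with siRNA 1, 11484 and 12331 with siRNA 2 and 8789.6 and 8975 with scramble, and GARS1, the glycyl-tRNA synthetase, gave 7579 and 7401 with siRNA 1, 9800.2 and 9849.6 with siRNA 2 and 5446 and 4902 with scramble. Both siRNAs were above scramble for ASNS and GARS1, siRNA 2 more so, while PSAT1 was above it with siRNA 2. The count of lower members was 4 without siRNA 1 array A or siRNA 2 array B and 5 without siRNA 1 array B, and that of higher members was 0 without siRNA 2 array A or B and 1 without siRNA 1 array A. With arrays centred on their medians 4 were lower and 0 higher, and without probe set types that can bind related transcripts the balance turned, with 2 of 22 lower and 3 higher. Genes of this kind that were chosen after their values were seen were ATF4, the transcription factor itself, at -0.40, and CHAC1, a glutathione-degrading target of it, at -0.44.

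The ATF4 response element (TGATGNAA, searched on both strands in the same windows) was in 6 of 34 members with a promoter in the table (17.6%) and in 3.67% of all promoters. Among the 10294 tested genes with a promoter its share was 1.92%. All 6 members with the element were below 0, with a median of -0.27. Among them AARS1 and HERPUD1, named after their values were seen, lay near 0, at -0.08 and -0.03. Of the 28 members without it 12 were above 0, with a median of -0.03, and of all 36 tested members 23 were below 0. A link between the element and the direction was not tested. The 250 bases before the start sites of ASNS and CHAC1, which have the smallest unadjusted p among members whose matches all lie before the start site, are shown with the element or its reverse complement in capitals. They are from RefSeq, GRCh38.p14, chr7:97872409-97872658 (minus strand) and chr15:40953221-40953470 (plus strand), and the matches begin 68 and 209 bases before the start site, that of CHAC1 on the opposite strand.
ASNS: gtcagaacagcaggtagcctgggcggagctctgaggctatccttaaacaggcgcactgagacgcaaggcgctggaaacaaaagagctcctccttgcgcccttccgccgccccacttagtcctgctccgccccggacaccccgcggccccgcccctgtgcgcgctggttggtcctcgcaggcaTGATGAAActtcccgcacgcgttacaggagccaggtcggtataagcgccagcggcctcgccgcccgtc
CHAC1: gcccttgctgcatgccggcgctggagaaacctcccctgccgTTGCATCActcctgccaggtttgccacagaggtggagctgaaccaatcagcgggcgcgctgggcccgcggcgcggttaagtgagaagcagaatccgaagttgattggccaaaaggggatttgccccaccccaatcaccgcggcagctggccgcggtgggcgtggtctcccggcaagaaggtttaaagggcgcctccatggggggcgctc
CHAC1 gave 323 and 390.3 with siRNA 1, 470.2 and 494 with siRNA 2 and 222 and 209.5 with scramble, in the same order as ASNS.

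NRF2 targets, which detoxify and restore reducing power, had 14 of 16 above 0, with 7 (43.8%) higher and 0 lower at an unadjusted p under 0.05. Over a gene's averaged probe sets 4 were higher (25%) and 2 lower (12.5%), beside 6.42% and 5.82% of all genes, and the median was 0.16. AKR1C3, an aldo-keto reductase, gave 6594 and 6417 with siRNA 1, 3281 and 3806 with siRNA 2 and 4119 and 5273 with scramble (0.88), and its near-identical relative AKR1C1, whose probe sets can bind related transcripts, gave 14984 and 15016 with siRNA 1, 8991 and 11179 with siRNA 2 and 13768 and 15703 with scramble. The siRNA 2 arrays were the lowest for both, but the AKR1C1 difference of 0.58 was 0.14 over its averaged probe sets. The count was 2 without siRNA 1 array A or B, 3 without siRNA 2 array A, 5 without siRNA 2 array B, and 4 with arrays centred on their medians or without the low-value filter. In the receptor pathway of the called IL13RA1, 5 of 12 members (41.7%) were higher at an unadjusted p under 0.05, beside 9.16% of all genes, and 0 were lower. IL13RA1 is itself 1 of these 5. SOCS1, a feedback inhibitor of JAK kinases, gave 157 and 142 with siRNA 1, 94.3 and 92.3 with siRNA 2 and 146 and 110.2 with scramble, and IL4R, the partner chain, chosen after its values were seen, gave 1267 and 1248 with siRNA 1, 1057 and 1053 with siRNA 2 and 1123 and 1208 with scramble. IL4R differed by 0.25, far less than IL13RA1. That pathway's count was 2 without siRNA 1 array B and 3 without siRNA 1 array A, siRNA 2 array A or siRNA 2 array B, and over a gene's averaged probe sets 1 was higher and 1 lower.

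The other subunits of PP2A showed small differences between the molecules. Of 19 PP2A subunits tested, 6 were above 0, 1 was higher and 3 were lower at an unadjusted p under 0.05, PPP2R2A included. PPP2R1B, a scaffold subunit, gave 1623 and 1336 with siRNA 1, 2034 and 1960.3 with siRNA 2 and 834 and 843 with scramble. It was above scramble with both siRNAs, and its difference of -0.44 turned to 0.07 over the mean of its probe sets. PPP2R3A, a regulatory subunit of another family, gave 1978 and 2018 with siRNA 1, 1529.7 and 1632 with siRNA 2 and 1961 and 1982 with scramble, low with siRNA 2. Among 14 regulators of PP2A, at an unadjusted p under 0.05 2 were lower with siRNA 1 and 0 higher. CIP2A, an inhibitor of PP2A, gave 679 and 712 with siRNA 1, 947 and 863 with siRNA 2 and 959 and 851 with scramble. The count of lower subunits was 1 without siRNA 1 array A or B, and that of lower regulators was 1 without either of these and 0 without siRNA 2 array A. With siRNA 2 array B left out, 1 subunit was higher, and 3 subunits and 2 regulators were lower. With arrays centred on their medians 0 subunits were higher and 1 regulator was lower. Over averaged probe sets 1 subunit was higher and 0 were lower, and without probe set types that can bind related transcripts 2 were higher and 1 lower.

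The complexes of the strongest siRNA 1 genes were also examined. Apart from MMGT1, the ER membrane protein complex had 9 tested subunits, of which EMC2 gave 5039 and 4750.2 with siRNA 1, 5719 and 6001 with siRNA 2 and 5809.8 and 5885 with scramble, a difference of -0.26. Of these 9, 1 (EMC2) was lower at an unadjusted p under 0.05 and 0 were higher. With MMGT1 counted, 2 were lower, and 1 when any single array was left out, siRNA 2 array B included. Apart from RAB21, the endosomal Rab GTPases had, at an unadjusted p under 0.05, 2 genes lower with siRNA 1, such as RAB22A at -0.38, and 3 higher. RAB5A, among those higher at 0.33, turned to -0.15 over its averaged probe sets. The median of these 17 Rab genes was 0.04. Of the Rab genes, RAB21 included, 0 were higher without siRNA 1 array B or siRNA 2 array A, and 1 was lower without siRNA 1 array A, siRNA 1 array B or siRNA 2 array B. With arrays centred on their medians 1 was higher and 2 were lower. In both lists the called gene stood far from the other members.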

How the data were processed

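The values are intensities per probe set, 54675 on each of 6 arrays, deposited by the authors in 1 table; the submitters' processing notes name Affymetrix Expression Console, with no version or algorithm given in the sources used here. Per the labels' protocols, RNA was extracted with TRIzol, purified on RNeasy columns and labelled with biotin using MessageAmp Premier. The mean after trimming 2% of each tail was 500.067 to 500.07 on every array, so the values were taken as scaled and not normalized further. No detection calls were used.

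Of the probe sets, 41091 had 1 gene symbol in the platform annotation, 1801 had several and 11777 had none; 62 controls were left out. Symbols were updated through RefSeq for 41037. Each gene took the probe set with the highest mean log2(signal + 1), giving 19775 genes, of which 7040 did not exceed the array median on 2 arrays and were not tested. Tested genes on probe sets of types that can bind related transcripts were 35.8%. All 6 arrays entered 1 limma fit (group means, empirical Bayes, Benjamini-Hochberg adjustment), with the contrast siRNA 1 minus siRNA 2. A call needed an adjusted p under 0.05 and 1.5-fold. The fit was checked on simulated data. Text names PPP2R2A, called genes (up to 15 each way), and up to 3 members per list with the smallest unadjusted p; others are marked as chosen after their values were seen. The gene lists and the comparison were chosen with earlier results of these data known, so no list is independent support. List members without a single-symbol probe set were not analysed here. Alternatives covered normalization, pseudocount, filter, prior variance, arrays in the fit, the replicate block, probe set choice and leaving out each array. Tools were R 4.3.3, limma 3.58.1, Python 3.11.15 and matplotlib 3.10.9.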

Additional observations from a re-analysis of the deposited data

How the results depend on the processing

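The direction of each of the 27 called genes held under all alternatives in which the gene was tested, but in many of these it could not change. The intensity trend, the replicate block, the siRNA arrays alone, the filters and leaving out a scramble array do not alter the difference itself. No called gene had overlapping siRNA arrays, so its direction could also not turn when 1 siRNA array was left out. The number of calls moved widely. Quantile normalization gave 12 calls (6 higher, 6 lower), a pseudocount of 16 gave 30 (11 and 19), the stricter filter of 4 arrays gave 112 (48 and 64, 25 of the 27 among them), an intensity trend in the prior variance gave 362 (207 and 155, 24 of the 27), and leaving out probe set types that can bind related transcripts gave 5 (1 and 4). Calls numbered 0 when arrays were centred on their medians, without a filter, with the siRNA arrays alone, with the replicate block, over a gene's averaged probe sets and with every probe set tested, where limma gave 1559 to 3882 features an unadjusted p under 0.05. Leaving out 1 array at a time gave 0 to 0 calls, in all and in each direction; without 1 scramble array the fit has the residual freedom of the siRNA arrays alone. The cause of these shifts was not tested. The replicate letters do not pair the arrays: deviations of same-lettered arrays correlated at -0.0309, 0.0139 and 0.0383. Directions that turned when a gene's probe sets were averaged were AGO4 (0.74), HBB (-0.40), ITGB4 (-0.17), KRT19 (-0.57), PA2G4 (-0.0707), PPP2R1B (0.0734), RAB5A (-0.15) and SMAD3 (0.35). Without the probe set types named they were HBB (-1.13), JAK2 (-0.73), MCL1 (0.0762), PA2G4 (-0.42), POLR1B (0.00752) and PPP2R1B (0.36). No scaling turned a direction, and the median of all genes stayed within 0.03 of 0. With 2 arrays a group, 3 residual degrees of freedom and called adjusted p-values all at 0.0418 to 0.04998, the number of arrays limits the precision, and differences of signals under the array medians are the least certain.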

Other observations

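Genes of further pathways are given with the counts of their lists at an unadjusted p under 0.05, beside 9.16% higher and 9.53% lower of all genes. None of the genes in this paragraph passed the adjusted threshold (limma). TGFBR2, the type II receptor of TGF-beta, gave 4940.0 and 5288 with siRNA 1, 2601 and 2470.2 with siRNA 2 and 5785 and 5047 with scramble (1.01, adjusted p = 0.0586, low with siRNA 2). Of 20 TGF-beta pathway genes 3 (15%) were higher and 4 (20%) lower, with a median of 0.00. Without siRNA 2 array B these counts were 3 and 1, and without siRNA 1 array A 1 and 2. BNIP3L, a mitophagy receptor of the hypoxia list, gave 1308 and 1307 with siRNA 1, 2199.5 and 2354 with siRNA 2 and 2147 and 1983 with scramble (-0.80, low with siRNA 1). CCN1, a matrix protein induced by YAP, gave 2571 and 2738 with siRNA 1, 3954 and 4196 with siRNA 2 and 5761 and 5009 with scramble (-0.62), lowest with siRNA 1, and LATS2, a kinase that restrains YAP, gave 1415 and 1272 with siRNA 1, 655 and 893 with siRNA 2 and 1524 and 1576 with scramble (0.81), lowest with siRNA 2. Of 19 YAP and TEAD targets 4 (21.1%) were higher and 1 (5.26%) lower, while the median was -0.08. Without siRNA 2 array B these were 2, 2 and 0.04, and 2 were higher without either siRNA 1 array, without either scramble array or with arrays centred on their medians. SPRY4, a feedback inhibitor of ERK signalling, was dim, at 61.6 and 61.4 with siRNA 1, 138 and 108 with siRNA 2 and 97.0 and 84.0 with scramble. MCL1, which protects cells from apoptosis, was above scramble with both siRNAs, at 5495 and 5121 with siRNA 1, 6998 and 7603 with siRNA 2 and 3621 and 3611 with scramble.

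In the remaining lists the higher and lower counts were 2 and 2 of 17 p53 targets (median -0.05), 1 and 1 of 18 cholesterol synthesis genes (0.00), 1 and 3 of 21 ribosome biogenesis and MYC targets (0.02), and 2 and 2 of 25 G1/S and DNA replication genes (-0.04). They were 1 and 2 of 19 glycolysis and hypoxia genes (0.06), 2 and 3 of 17 ERK feedback genes (0.04) and 3 and 2 of 14 BCL2 family genes (0.07). Without siRNA 2 array B these pairs were, in the same order, 1 and 0, 0 and 3, 2 and 2, 0 and 1, 1 and 2, 0 and 1, and 1 and 2. Markers of other cell types had 1 of 7 tested higher at an unadjusted p under 0.05, HBB, whose direction turned between its probe sets. Without siRNA 2 array B 1 of these markers was higher and 2 were lower. Of 5405 probe sets above the filter with several gene symbols or none, limma called 0, and 575 (10.6%) had an unadjusted p under 0.05. Groups of 2 arrays are too small for a test of outlying arrays.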
